A study of Mus musculus with 6 samples.

Results

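Claudins are membrane proteins of the tight junction, the seal between neighbouring epithelial cells. Some members, such as Cldn2 and Cldn15, form pores for cations and water, and others, such as Cldn1, Cldn3, Cldn4 and Cldn18, tighten the seal, so the mixture that a cell makes sets how leaky its layer is. In the normal pancreas they line ducts and acini, and CLDN18 is widely known as an antigen of gastric and pancreatic tumours. The 10 claudin genes described here are Cldn1, Cldn2, Cldn3, Cldn4, Cldn6, Cldn7, Cldn12, Cldn15, Cldn18 and Cldn23, taken by symbol from a deposited table that names 23525 of the 53379 genes counted. The full table holds 33 claudin genes. Of the other 23, 12 had no count in any library, 10 stayed under 1 TPM (a transcript level scaled for length and depth) with at most 18 counts in a library, and Cldn8 alone reached 1 TPM.

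RNA was sequenced from 6 epithelial organoid cultures of tumours of C57/Bl6 mice, grown as matrigel domes under mouse complete organoid medium. Every culture carries the Trp53 R172H allele, switched on by Cre under the promoter of Pdx1, a gene of the early pancreas (Pdx1-Cre), so the cells recombined are those in which that promoter was active. Organoid lines 6, 23 and 34 each gave 1 heterozygous library, which keeps a wild-type Trp53 allele (Trp53LSLR172H/+, n = 3), and 1 library with loss of heterozygosity (LOH, Trp53LSLR172H/-, n = 3), and the comparison asks what differs when the wild-type allele is gone. The age of the mice is not given, and a suffix on the descriptions of all 3 LOH libraries, whose meaning is not stated, cannot be told apart from genotype. Each line is represented by 1 library per genotype, so the p-values measure only the spread between these 6 samples.

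The libraries held 13680458 to 27917277 expected counts, of which 61.4% to 73.3% fell on genes of the authors' protein-coding table, and 3 counts corresponded to 0.1 to 0.223 CPM (counts scaled to library size). Trp53 ran from 76.3 to 86.5 CPM in the heterozygous and from 47.4 to 73.5 CPM in the LOH libraries (edgeR adjusted p = 0.227). This total counts R172H and wild-type transcripts together. The 11 duct and epithelial markers summed to 4349 to 5085 TPM in the heterozygous and 3199 to 6139 TPM in the LOH libraries, most of it from keratins. Of these 11 genes 1 passed, beside 5.21% of all tested genes. This was the duct factor Onecut1, lower in LOH (log2 fold change -4.33, edgeR adjusted p = 0.0365, and 0.106 with the line as a block). Spp1 lay lower in all 3 LOH libraries (log2 fold change -1.08, edgeR adjusted p = 0.0585). The 10 fibroblast markers summed to at most 0.06 TPM in the heterozygous and 0.36 TPM in the LOH libraries. Sums over acinar, leukocyte and endothelial markers were low, and higher in LOH. The 12 acinar markers summed to 0.79 to 1.18 TPM against 1.3 to 2.67 TPM. The 10 endocrine markers summed to 0.08 to 0.22 TPM against 0.04 to 0.29 TPM, with overlap. The 12 leukocyte markers summed to 1.76 to 2.27 TPM against 2.7 to 10.8 TPM, and 10 endothelial markers to 1.21 to 1.51 TPM against 5.5 to 11.5 TPM. Of these, 11 leukocyte and 8 endothelial markers stayed under 1 TPM in every library, with Cd4, Lyz2 and Emcn at 0 throughout. Only 1 leukocyte marker was tested, which did not pass in edgeR, and 2 endothelial markers, of which Flt1 passed. Such sums do not show by themselves that these cells were present. The part of these genes in the claudin results was not tested. In bulk RNA, fewer cells of a type and less RNA per cell cannot be told apart.

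Cldn2, the pore former that led in the heterozygous libraries, was lower in all 3 LOH libraries, although its test missed the threshold, and its share of the summed claudin TPM was 35.0% ± 1.61 in the heterozygous and 15.4% ± 3.22 in the LOH libraries (SD, n = 3 each). Cldn23 rose 4.21-fold in the test of LOH against heterozygous libraries (edgeR adjusted p = 0.0254), from low counts of 29 to 50 against 139 to 169. It did not pass with the line as a block (edgeR adjusted p = 0.0825), or when any heterozygous library was left out. Cldn6, a claudin best known from embryonic epithelia, was 4.06, 5.76 and 7.44 times higher in the LOH library of lines 6, 23 and 34, and passed edgeR's test only when the organoid line entered the model. Cldn18 exceeded 1 CPM in line 6 alone, with 244.5 CPM in its LOH library.

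Promoter sequence is shown for Cldn2 and Cldn6, whose groups did not overlap, and for the neighbouring pair Cldn3 and Cldn4. It is also shown for Cldn18, which was high in line 6 alone and has separate starts. The windows come from RefSeq (GRCm38.p6), which matched 9 of the 10 members with 13 windows, and cover 250 bases before an annotated start, 5′ to 3′ on the gene's strand. Cldn23 was not matched. Capitals mark the motifs searched on both strands: a TATA box (TATAAA), a GC box (GGGCGG), an E-box (CAGGTG), an AP-1 site (TGANTCA), a CDX site (TTTATG), an HNF1-type site (GTTAAT) and the p53 core pair.
Cldn2 (chrX:139800558-139800807, plus strand): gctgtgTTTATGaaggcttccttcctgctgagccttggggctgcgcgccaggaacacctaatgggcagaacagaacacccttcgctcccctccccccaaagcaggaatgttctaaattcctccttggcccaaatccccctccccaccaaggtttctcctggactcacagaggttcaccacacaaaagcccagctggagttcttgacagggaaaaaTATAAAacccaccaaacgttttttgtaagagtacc
Cldn6 (chr17:23679115-23679248, plus strand, the 134 bases that end before the first annotated exon): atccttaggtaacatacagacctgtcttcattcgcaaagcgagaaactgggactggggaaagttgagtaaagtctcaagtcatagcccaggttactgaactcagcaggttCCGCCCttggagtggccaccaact
Cldn3 (chr5:134985964-134986213, plus strand): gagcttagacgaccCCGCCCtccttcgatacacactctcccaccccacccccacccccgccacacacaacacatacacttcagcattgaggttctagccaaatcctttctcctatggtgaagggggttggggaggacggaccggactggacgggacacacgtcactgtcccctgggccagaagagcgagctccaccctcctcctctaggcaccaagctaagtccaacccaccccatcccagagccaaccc
Cldn4 (chr5:134946935-134947184, minus strand): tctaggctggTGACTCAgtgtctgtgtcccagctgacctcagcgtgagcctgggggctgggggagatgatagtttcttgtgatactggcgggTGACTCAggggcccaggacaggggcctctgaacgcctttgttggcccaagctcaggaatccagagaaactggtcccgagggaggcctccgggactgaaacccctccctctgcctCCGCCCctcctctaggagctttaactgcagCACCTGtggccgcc
Cldn18, upstream start (chr9:99717268-99717517, minus strand): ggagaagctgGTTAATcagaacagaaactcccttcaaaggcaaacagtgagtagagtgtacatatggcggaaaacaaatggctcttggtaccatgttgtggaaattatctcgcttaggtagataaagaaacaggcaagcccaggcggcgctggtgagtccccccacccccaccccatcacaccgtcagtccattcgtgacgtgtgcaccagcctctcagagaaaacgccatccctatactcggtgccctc
Cldn18, downstream start (chr9:99710064-99710313, minus strand): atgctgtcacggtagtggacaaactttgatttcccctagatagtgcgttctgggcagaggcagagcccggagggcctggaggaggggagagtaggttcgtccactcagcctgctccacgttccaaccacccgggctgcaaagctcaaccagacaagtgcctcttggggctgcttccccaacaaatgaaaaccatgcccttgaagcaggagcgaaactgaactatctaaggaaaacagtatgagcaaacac
Cldn2 was the only member with the TATA letters, which 12.4% of 32851 promoter windows hold, and the only one with the CDX letters, held by 10.8%. A GC box lay in 8 of the 13 windows, from 7 of the 9 members (32.7% of all windows). An E-box lay in 3 of the 13 windows (17.2%). AP-1 letters lay in 2 of them, that of Cldn4 with 2 copies and that of Cldn15 (6.75%). The HNF1-type letters lay at Cldn1 and at the upstream start of Cldn18 (6.43%). None of the 13 windows held the p53 core pair, which 0.49% of all windows hold. A match is a description of letters, and no binding was measured.

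Over all genes, 757 of 14537 tested genes (5.21%) had an edgeR adjusted p under 0.05, 3.55% higher and 1.66% lower in LOH. Of the 757, 68.2% were higher, against 14.7% of the genes that passed on log2(TPM + 1) in limma and 56.3% once each library's median was removed from those values. Of the 10 claudins 8 had enough counts to be tested, and 1 of them, Cldn23, passed. The other 7 did not, of which Cldn2, Cldn3 and Cldn6 had an unadjusted p under 0.05, as 25.3% of all tested genes did. The median log2 fold change was 1.08 over the 8 tested claudins, 6 of them positive, and 0.06 over all tested genes. Single libraries moved the claudin median, to 0.43 without LOH line 34 (9 claudins tested) and to 1.83 without heterozygous line 23 (10 tested). All 3 LOH libraries lay above all 3 heterozygous ones for Cldn6 and Cldn23, which 16.4% of tested genes did, and below them for Cldn2, which 16.5% did. Values below are CPM unless stated, in the order of lines 6, 23 and 34.

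**Figure D1:**
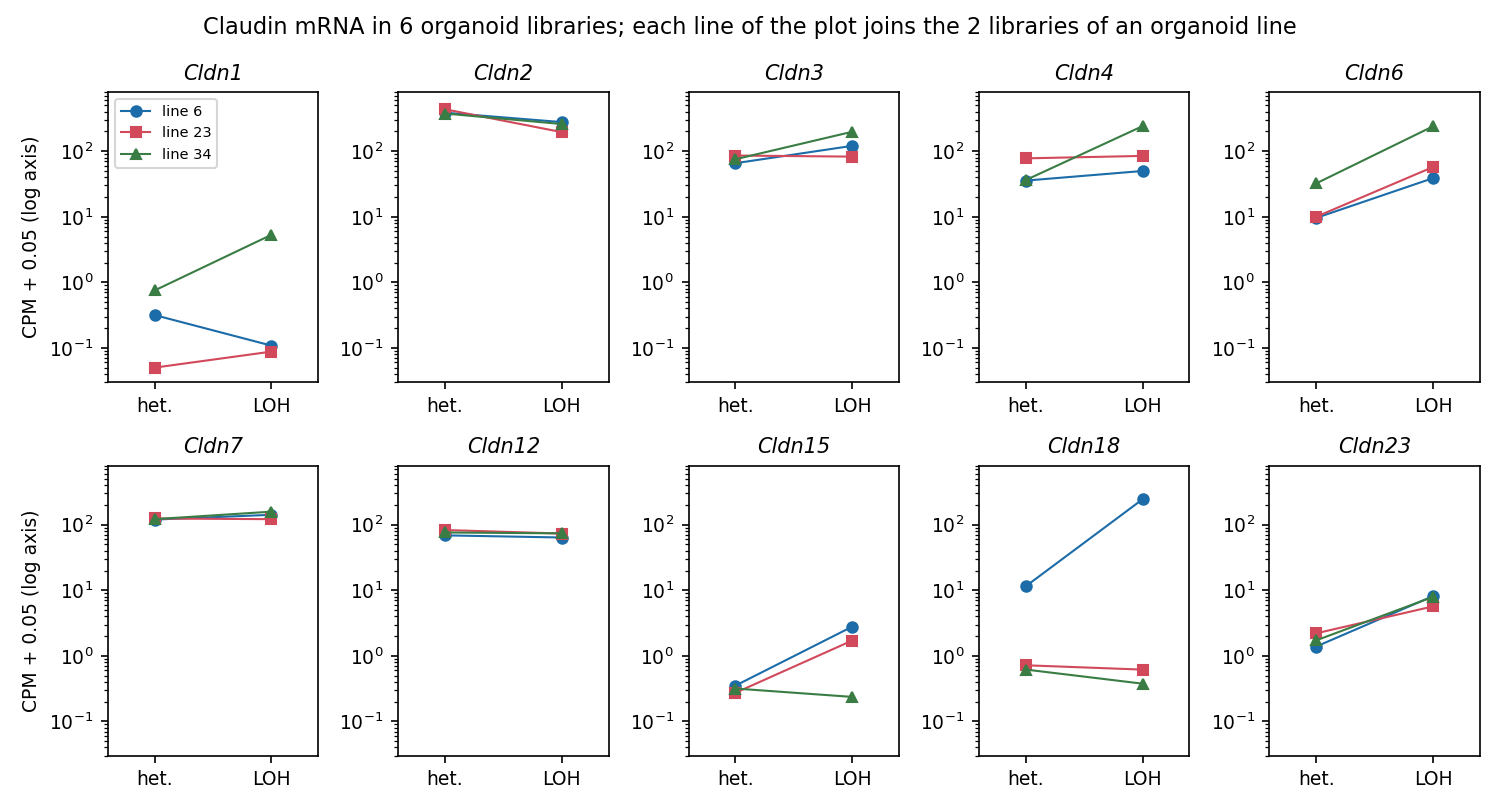
CPM on a log axis for each of the 10 claudins, with 1 point per library, grouped by genotype and marked by organoid line. The LOH points of Cldn2 (195.2 to 277.8) lie below and those of Cldn6 (38.8 to 239.5) and Cldn23 (5.63 to 8.09) above every heterozygous point, and the 2 line 6 points of Cldn18 stand apart from the other 4.

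Among the pore formers, Cldn2 (ENSMUSG00000047230.6; chromosome X, 139800828 to 139811386, GRCm38) conducts sodium and water across leaky epithelia. It had 387.3, 436.5 and 375.6 CPM in the heterozygous libraries and 277.8, 195.2 and 259.7 CPM in LOH. The groups did not overlap, and the lowest value was that of LOH line 23. Mean levels were 399.8 ± 32.3 CPM and 244.2 ± 43.4 CPM (SD over 3 libraries each), a log2 fold change of -0.71 (SE 0.20) that missed the threshold at an edgeR adjusted p of 0.0814. Without the LOH library of line 6 it passed, at an edgeR adjusted p of 0.0409 and a log2 fold change of -0.85, and it also passed in DESeq2 at 0.0155, in a range of 0.0155 to 0.369 over 19 alternatives. In TPM, where LOH libraries were lower by a median of 0.36 on the log2 scale over 11746 genes, Cldn2 fell by 1.10 (limma adjusted p = 0.0215), and by 0.76 with each library's median removed (limma adjusted p = 0.0637).

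Cldn15, the other pore former, is a cation pore of the small intestine and was rare here. It had 9, 3 and 8 counts in the heterozygous and 47, 44 and 4 counts in the LOH libraries, or 0.3, 0.223 and 0.267 against 2.74, 1.66 and 0.186 CPM. The LOH libraries of lines 6 and 23 were high, and that of line 34 lay below every heterozygous library. It had too few counts for the main test. Fitted with no filter on low counts, it did not pass (edgeR adjusted p = 0.139). It passed only when the LOH library of line 34, the one without the higher level, was left out (edgeR adjusted p = 0.0298), a setting in which its LOH counts let it through the filter, and so it is not read as a change. In the other 4 leave-out settings that tested it, the edgeR adjusted p ran from 0.144 to 0.372.

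Cldn3 and Cldn4, which seal the paracellular path and act as receptors of a clostridial enterotoxin, are single-exon neighbours on chromosome 5. They lie 39279 bases apart on opposite strands, with no coding gene between them. Cldn3 (ENSMUSG00000070473.4; 134986214 to 134987472) had 65.5, 85.8 and 75.3 CPM in the heterozygous and 120.7, 82.6 and 197.9 CPM in the LOH libraries. Cldn4 (ENSMUSG00000047501.3; 134945119 to 134946934) had 35.6, 77.8 and 36.2 against 49.9, 84.7 and 241.3 CPM. LOH line 34 was the highest library for both genes, and both groups overlapped. The log2 fold changes were 0.82 (SE 0.33, edgeR adjusted p = 0.173) for Cldn3 and 1.33 (SE 0.61, edgeR adjusted p = 0.226) for Cldn4. Without LOH line 34 that of Cldn3 was 0.43 and that of Cldn4 also 0.43, and without line 34 altogether they were 0.42 and 0.25. By line, the log2 ratios were 0.88, -0.06 and 1.39 for Cldn3 and 0.49, 0.12 and 2.73 for Cldn4. An antisense gene that overlaps Cldn3, Wbscr25, had 3 to 11 counts a library, against 1157 or more for Cldn3.

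Cldn7, found along the whole lateral membrane of many epithelia and bound by Epcam, was abundant in every library. It had 119.7, 124.4 and 121.5 CPM in the heterozygous and 141.6, 121.4 and 158.1 CPM in the LOH libraries (log2 fold change 0.20, SE 0.17, edgeR adjusted p = 0.484). The groups overlapped through LOH line 23. In TPM the sign turned, with a log2 difference of -0.14, and with library medians removed it was 0.21. Cldn7 lies 372905 bases from Trp53 on chromosome 11, with 34 coding genes between them, of which 26 were tested, 2 passed and the median log2 fold change was 0.43. Transcript Cldn7-201 held 64.4% to 82.9% of the gene's TPM over the 6 libraries.

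Cldn1, a barrier protein of skin and many ducts, was close to absent outside line 34. It had 8, 0 and 21 counts in the heterozygous and 1, 1 and 113 counts in the LOH libraries, and the count of 0 allows up to 0.223 CPM. The LOH library of line 34 reached 5.26 CPM and the other 5 stayed at or below 0.701 CPM. It did not enter the main test, and with no filter on low counts its edgeR adjusted p was 0.461.

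Cldn18 (ENSMUSG00000032473.13; chromosome 9, 99689461 to 99717267, minus strand) is a barrier claudin with a lung and a stomach form made from alternative starts. It had 11.4, 0.668 and 0.568 CPM in the heterozygous and 244.5, 0.566 and 0.326 CPM in the LOH libraries, from 343, 9 and 17 and from 4200, 15 and 7 counts. Line 6 was high in both genotypes, and its LOH library was 21.4 times its heterozygous one, while lines 23 and 34 stayed under 1 CPM. The log2 fold change over all libraries, 4.24 (SE 2.40, edgeR adjusted p = 0.312), rests on that library: without it the value was -3.29, and without line 6 it was -0.47. In line 6, transcripts from the upstream start held 60.5% of the gene's TPM in the heterozygous and 66.9% in the LOH library, or 37.9% and 44.8% of its transcript counts. These shares are RSEM's division of reads among transcripts that share most exons, and the files do not say which start gives which form. The antisense gene Gm16004, which overlaps Cldn18, had at most 1 count.

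Summed TPM of 13 gastric-type epithelial markers was 398.3, 148.7 and 116.2 in the heterozygous and 1816, 170.8 and 290.6 in the LOH libraries. The sum was highest in the 2 line 6 libraries, where the secreted peptide Tff1 alone gave 280.9 and 1336 TPM. Members of the list differed: in LOH lines 6, 23 and 34 the stomach gene Gkn1 had 98.7, 3.25 and 4.05 CPM, the mucin Muc5ac 7.10, 14.8 and 7.08 CPM, and the pepsinogen Pgc 3.26, 19.8 and 0.512 CPM. Gkn1 was thus highest in line 6, as Cldn18 was, and Muc5ac and Pgc in line 23. In this list, of which 11 genes were tested, 1 passed, Vsig1, a junction protein of gastric epithelium (log2 fold change 2.13, edgeR adjusted p = 0.0164). With the line as a block 3 passed, Vsig1, Gkn1 and Anxa10, at edgeR adjusted p = 0.0341, 0.0318 and 0.0341. Over all tested genes 5.21% passed, and 1.47% with the block. The part of other epithelial programmes in the Cldn18 result was not tested.

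Cldn6 (ENSMUSG00000023906.2; chromosome 17, 23679249 to 23682446) is expressed in early epithelia and is scarce in most adult tissues. It had 9.54, 9.94 and 32.2 CPM in the heterozygous and 38.8, 57.3 and 239.5 CPM in LOH. The groups did not overlap, and line 34 was the highest line in each genotype. Mean levels were 17.2 ± 12.96 CPM and 111.8 ± 110.9 CPM (SD over 3 libraries each), a log2 fold change of 2.69 (SE 0.83) that missed the threshold at an edgeR adjusted p of 0.101. With the line as a block it was 2.48 (SE 0.28, edgeR adjusted p = 0.0341), 1 of 213 genes (1.47%) that passed that test. Without LOH line 34 the unblocked value was 1.47 (edgeR adjusted p = 0.188), in a range of 0.00325 to 0.335 over 19 alternatives. Cldn9, a close relative 137 bases away on the other strand, had at most 18 counts in a library, and RSEM divides reads that fit such copies equally well.

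Cldn23, a little-studied claudin of differentiated gut epithelium (ENSMUSG00000055976.6; chromosome 8, 35824712 to 35826559), was low but even within each genotype. It had 1.33, 2.15 and 1.67 CPM in the heterozygous and 8.09, 5.63 and 7.87 CPM in the LOH libraries, from 29 to 50 and from 139 to 169 counts. The lowest LOH library was 2.61 times the heterozygous library of its line. Mean levels were 1.72 ± 0.41 CPM and 7.20 ± 1.36 CPM (SD over 3 libraries each), and Cldn23 passed at an edgeR adjusted p of 0.0254 (log2 fold change 2.07, SE 0.33). With the line as a block it was 2.08, and the edgeR adjusted p of 0.0825 no longer passed. It also missed the threshold without the heterozygous library of line 6, 23 or 34, at edgeR adjusted p = 0.129, 0.0996 and 0.143, settings in which 0 genes of the table passed and 2272 to 2966 had an unadjusted p under 0.05. Over 19 alternatives it passed in 12, and the log2 fold change ran from 1.12 to 2.41.

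Cldn12, which lacks the PDZ-binding tail that ties other claudins to the scaffold, had the smallest log2 fold change of the 8 tested members in CPM. It had 68.7, 82.95 and 76.1 CPM in the heterozygous and 63.7, 73.2 and 73.8 CPM in the LOH libraries (log2 fold change -0.11, SE 0.17, edgeR adjusted p = 0.713). Each LOH library lay slightly below the heterozygous library of its line, and the groups overlapped. In TPM they did not, at 26.7 to 28.2 and 18.2 to 22.1 TPM, a scale on which the median gene was also lower in LOH. Cldn8, the claudin outside the 10 that reached 1 TPM and a barrier protein of the collecting duct and colon, had 8.37, 5.64 and 7.38 against 11.2, 34.9 and 3.31 CPM, high in LOH line 23 (log2 fold change 1.21, SE 0.74, edgeR adjusted p = 0.348). Without that library the log2 fold change of Cldn8 was 0.02, and without line 23 it was -0.13.

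**Figure D2:**
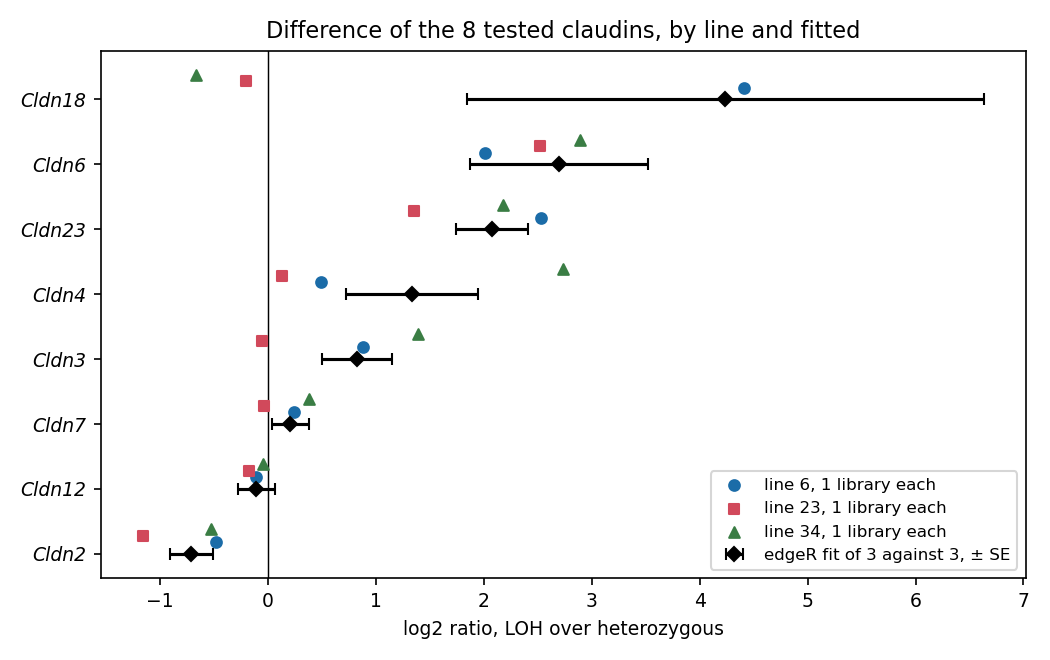
Log2 ratio of the LOH to the heterozygous library for the 8 tested claudins, 1 point per organoid line, with 0 marking equal levels. Black diamonds with bars give the edgeR log2 fold change ± SE. All 3 lines lie above 0 for Cldn4, Cldn6 and Cldn23 and below 0 for Cldn2 and Cldn12, and Cldn18 runs from 4.41 in line 6 to -0.67 in line 34.

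Line by line, Cldn4, Cldn6 and Cldn23 were higher and Cldn2 and Cldn12 lower in the LOH library of all 3 lines, while Cldn3, Cldn7 and Cldn18 had ratios of both signs, as 55.5% of tested genes did. The 8 tested claudins had median log2 ratios of 0.68, -0.05 and 0.89 in lines 6, 23 and 34, beside -0.01, 0.03 and 0.06 over all tested genes. In the edgeR test of differences between lines with genotype in the model, 0 of 14537 genes (0%) and 0 of 8 claudins passed, with 389 genes and 2 claudins at an unadjusted p under 0.05. Of the 2 claudins, Cldn6 had an edgeR adjusted p of 0.724 and Cldn18 an edgeR adjusted p of 0.998. DESeq2's likelihood ratio test passed 119 genes, both claudins among them.

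Per transcript length, the order of the claudins shifted. In the heterozygous libraries Cldn2 (156.9 ± 15.8 TPM, SD, n = 3) and Cldn7 (131.4 ± 16.4 TPM) led and overlapped, ahead of Cldn3 (76.9 ± 3.61 TPM), which lay apart from both neighbours. Cldn4 (33.2 ± 13.4 TPM) and Cldn12 (27.5 ± 0.716 TPM) overlapped, and Cldn6 followed at 14.2 ± 10.1 TPM. In the LOH libraries Cldn7 (119.9 ± 18.4 TPM) and Cldn3 (103 ± 38.5 TPM) came first, followed by Cldn2 (73.7 ± 16.1 TPM), Cldn6 (67.8 ± 62.5 TPM) and Cldn4 (62.3 ± 45.9 TPM), and each of these overlapped the next in the order. Cldn23 stood at 1.13 ± 0.164 and 3.68 ± 0.825 TPM, and Cldn1 and Cldn15 averaged under 1 TPM in each genotype.

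Shares of the summed claudin TPM do not depend on a library's scale. Cldn2 took 36.4%, 35.4% and 33.2% in the heterozygous and 17.6%, 17.0% and 11.7% in the LOH libraries, so every LOH share lay below every heterozygous one. Cldn6 took 1.90%, 1.73% and 6.08% against 5.25%, 10.5% and 22.9%, groups that overlapped because heterozygous line 34 exceeded LOH line 6. Cldn18 took 19.1% in LOH line 6 and at most 1.21% elsewhere. Cldn3 took 17.2% ± 1.16 and 20.6% ± 2.33, and its LOH shares all exceeded its heterozygous ones (at most 18.3% against at least 18.6%). A lower share of Cldn2 by itself raises the shares of the others. In CPM and TPM the Cldn3 groups overlapped, and line 23 had 80.9 TPM in its heterozygous and 64.4 TPM in its LOH library. Cldn7 held 29.3% ± 2.59 and 25.3% ± 5.46, with overlap. The total itself was 475.1, 442.8 and 424.8 TPM in the heterozygous and 516.8, 346.4 and 610.9 TPM in the LOH libraries.

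**Figure D3:**
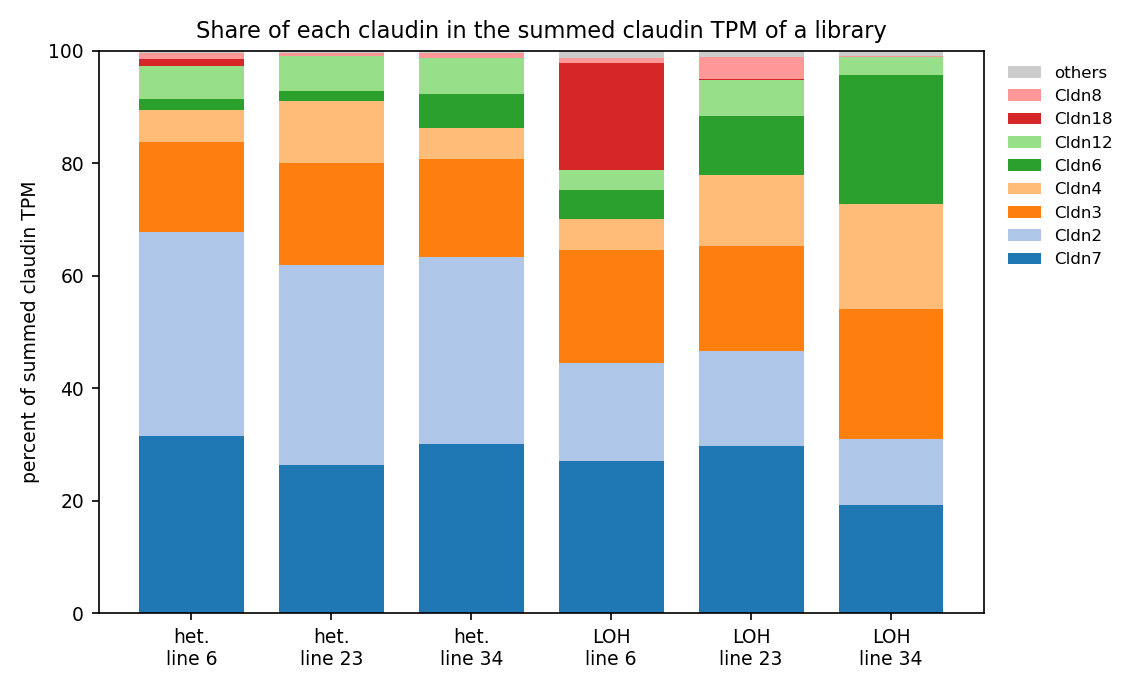
Percent of the summed claudin TPM held by each claudin, stacked to 100% for the 6 libraries. The Cldn2 segment shrinks from 33.2% to 36.4% in the heterozygous libraries to 11.7% to 17.6% in the LOH libraries, with Cldn18 large in LOH line 6 and Cldn6 large in LOH line 34.

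Across the 6 libraries the members fell into loose patterns, given as descriptions over points that share 3 lines and 2 genotypes. Pearson's r of log2 CPM was 0.985 between Cldn3 and Cldn7, and -0.838 between Cldn12 and Cldn18. It was 0.826 between the neighbours Cldn3 and Cldn4, and 0.824 between Cldn3 and Cldn6, which lies on chromosome 17. Among 12677 genes of at least 1 CPM, the closest to Cldn2 were Fbxo9 (r = 0.994) and Lrrc47 (r = 0.993), with 282 genes above 0.95. Closest to Cldn23 were St3gal6 (r = 0.998) and Slc39a1 (r = 0.996), with 242 such genes, and closest to Cldn7 were Krt19, a keratin of ducts (r = 0.994), and Gm9794 (r = 0.991). Cldn6 was most like Prkg2 (r = 0.997) and Cd53 (r = 0.995), Cldn4 most like Ghitm (r = 0.998) and Ddit4 (r = 0.996), and Cldn3 most like Lsm14b and Atp13a2 (r = 0.997 and 0.996). Cldn18 was most like Scrib (r = 0.990) and Tmem104 (r = 0.985), and Cldn12 most like Ndufs7 (r = 0.995) and Csnk1e (r = 0.979). All r values of Cldn18 rest on line 6, as its libraries of lines 23 and 34 had 7 to 17 counts. Genes above 0.95 numbered 10 for Cldn12, 22 for Cldn18, 61 for Cldn4, 62 for Cldn7, 64 for Cldn6 and 81 for Cldn3.

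Genes of proteins that act together with claudins were read from the same fit. Over all tested genes, 3.55% passed as higher and 1.66% as lower in LOH, and 25.3% had an unadjusted p under 0.05. Of 13 other membrane proteins of the tight junction, all tested, 1 rose and 0 fell, with a median log2 fold change of 0.30. The gene that rose was Marveld3, a relative of occludin, with 14.4, 16.2 and 13.7 against 38.1, 34.4 and 22.8 CPM (log2 fold change 1.11, SE 0.24, edgeR adjusted p = 0.0481, and 0.115 with the line as a block). Of 19 tested genes listed with the cytoplasmic scaffold of the tight junction, 0 passed in edgeR. Their median log2 fold change was 0.25, with 3 at an unadjusted p under 0.05. Ybx3 and Afdn, abundant members of the list, had log2 fold changes of 0.11 and 0.20. Of 16 adherens junction and desmosome genes 2 rose and 0 fell. Dsc2, a desmosomal cadherin, had 12.3, 6.01 and 7.04 against 75.9, 108.5 and 47.3 CPM (log2 fold change 3.19, edgeR adjusted p = 0.0164, and 0.0397 with the block). Nectin4 had 3.87, 4.45 and 3.31 against 10.01, 18.9 and 12.01 CPM (log2 fold change 1.82, edgeR adjusted p = 0.0298, and 0.068 with the block). Of 10 genes of claudin trafficking and cleavage 0 passed in edgeR, with 3 at an unadjusted p under 0.05. Epcam, which binds Cldn7, had a log2 fold change of 0.70 (edgeR adjusted p = 0.154), Spint2, an inhibitor of the protease that cuts Epcam, 0.21, and Epha2, a kinase of claudins, -0.63.

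Of 21 transcription factors described at claudin genes 15 were tested, and 4 rose and 0 fell. Over all tested genes 3.55% rose and 1.66% fell, and 1.47% passed with the line as a block. Foxa1, a pioneer factor of endoderm, had 1.501, 0.445 and 0.768 against 25.7, 27.8 and 15.5 CPM (log2 fold change 4.61, edgeR adjusted p = 0.0132). Elf3, an epithelial ETS factor, had 66.2, 85.0 and 59.6 against 207.1, 228.6 and 244.9 CPM (log2 fold change 1.69, edgeR adjusted p = 0.0164). These 2 also passed with the line as a block, at edgeR adjusted p = 0.0318 and 0.0453. Cdx2, an intestinal homeobox factor (log2 fold change 1.56, edgeR adjusted p = 0.029), and Klf4 (1.18, edgeR adjusted p = 0.0208) did not, at 0.0645 and 0.0852. Cdx2 lay above all heterozygous values in every LOH library, as 16.4% of tested genes did. It is known to bind the Cldn2 promoter, but no binding was measured here, and its part in the Cldn2 values was not tested. Among 10 tested intestinal-type markers 7 rose, or 4 with the line as a block. Like the transcription factors, they were listed with earlier results of these data known, so the counts are descriptions only. The sum over the whole intestinal list was 215.1 to 350.8 TPM in the heterozygous and 582.9 to 1038 TPM in the LOH libraries. The part of these genes in the claudin values was not tested. With any heterozygous library left out, none of these genes passed in edgeR, as for Cldn23.

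**Figure D4:**
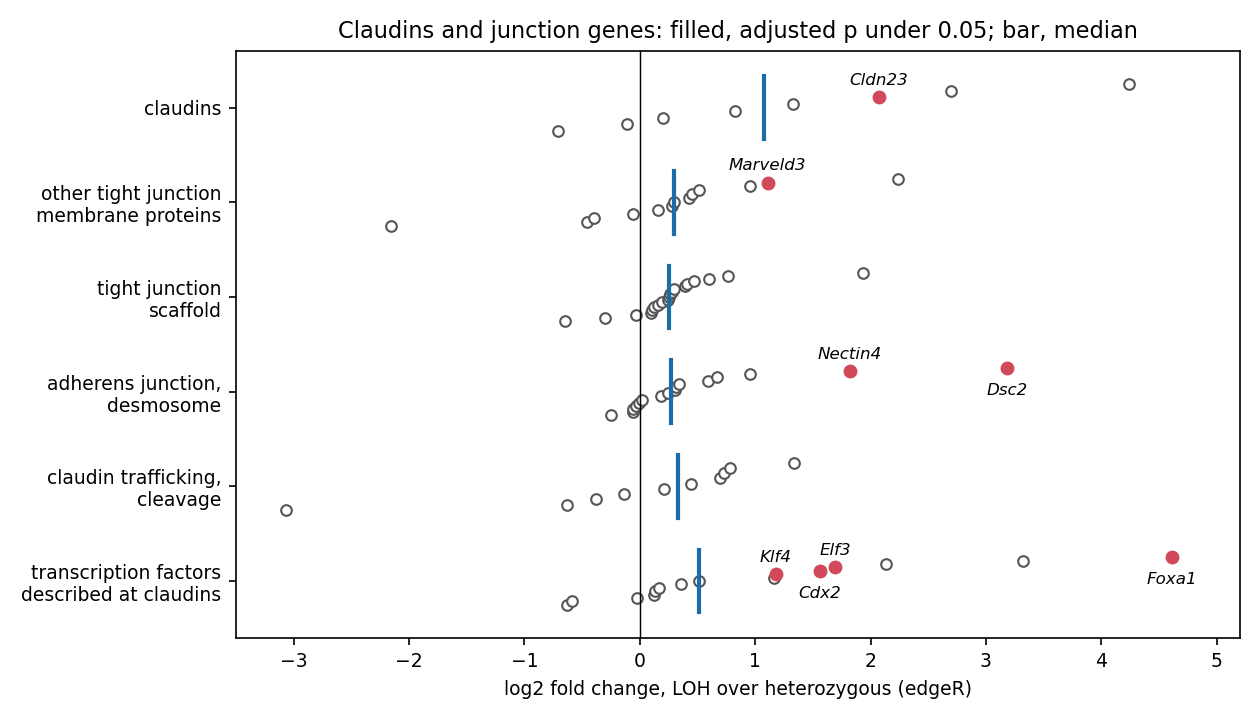
Log2 fold change of LOH over heterozygous libraries for tested genes of 6 lists, 1 point per gene, filled where the edgeR adjusted p was under 0.05, with a bar at each list's median. The claudin median of 1.08 comes from 8 spread points and is 0.43 without LOH line 34, while the medians of the other lists lie between 0.25 and 0.51.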

How the data were processed

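Total RNA of 6 organoid cultures was made into libraries with a TruSeq Stranded Total RNA kit, per the labels' protocols. The submitters' processing notes name FastQC 0.11.5, STAR 2.5.2b, RSEM 1.3.0, DESeq2 1.44.0 and GRCm38.p5, and the names of the deposited tables give GENCODE release 16. The strand setting and read filters were not given in the sources used here. Per the file headers, the deposited values are RSEM's expected counts (estimated counts per gene and transcript), TPM and the percent of a gene's TPM held by each transcript (IsoPct). The deposited normalized table holds a signal, expected counts divided by a size factor per library, and was used here for symbols and for the protein-coding set. Coordinates are from GENCODE release 21 (GRCm38).

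Groups and lines came from the titles. Expected counts were rounded, filtered with filterByExpr, scaled by TMM and tested over the whole table by edgeR quasi-likelihood (edgeR 4.0.16, R 4.3.3), two-sided, at a Benjamini-Hochberg adjusted p of 0.05. CPM are TMM-scaled, log2 CPM used a prior count of 2, and a standard error is the log2 fold change over the root of F. Differences between lines were tested in the same tool with genotype as covariate. Libraries with the same number come from 1 line by title, so the numbers pair the samples. Deviations from group means correlated at -0.295, 0.009 and 0.294 in lines 6, 23 and 34, and at -0.387 to 0.296 between lines. The blocked value stands beside a result where it changed a call.

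Tried instead were upper quartile or RLE scaling, all genes or those with 10 counts or more in each library, protein-coding genes only, the block, each library or line left out, DESeq2 1.42.0, and limma 3.58.1 on TPM (genes of at least 1 TPM in 3 libraries, pseudocount 1 or 0.1). Removing each library's median from the TPM values, and the list counts with libraries left out, were added after seeing the data. The claudins and gene lists were chosen with earlier results of these data known. An allele that all groups share and 1 scaffold gene are not reported here. The genes named are the 10 claudins, any other claudin of at least 1 TPM, listed junction, trafficking and transcription factor genes that passed (otherwise up to 3 of highest TPM), the 2 genes of highest r per member, and Trp53. Gastric genes and markers named besides these were chosen after their values were seen. The fits were tested on simulated data. Depth was 13680458 to 27917277 counts, and a floor of 3 counts covers counting error alone, as PCR copies of a molecule were not told apart. Python 3.11.15 with pandas 2.3.3, numpy 2.4.6 and matplotlib 3.10.9 made the tables and figures.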

Additional observations from a re-analysis of the deposited data

Results flagged for a closer look

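For 4 claudins the log2 ratio of LOH to heterozygous had opposite signs in different organoid lines, as it did for 55.5% of tested genes. With 1 library per genotype in each line, these differences between lines were not tested. Cldn18 had the widest range of the 4, at 5.07 on the log2 scale, from 4.41 in line 6 to -0.21 in line 23 and -0.67 in line 34, where the last 2 ratios rest on 7 to 17 counts a library. The range was 3.75 for Cldn8, with 0.41 in line 6, 2.61 in line 23 and -1.14 in line 34. It was 1.45 for Cldn3, with 0.88, -0.06 and 1.39, and 0.42 for Cldn7, with 0.24, -0.04 and 0.38. For Cldn3 and Cldn7 the value below 0 was that of line 23 and close to 0.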

How the results depend on the processing

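Over the alternatives for the 8 tested claudins, 130 values kept their direction and their side of the threshold, 1 kept its direction with no adjusted p (Cldn18 in DESeq2), 6 passed where the reported value did not, 7 no longer passed and 4 turned in sign. The turned values were -0.14 for Cldn7 on log2(TPM + 1) and -0.14 on log2(TPM + 0.1), and for Cldn18 -3.29 without LOH line 6 and -0.47 without line 6, in a range up to 7.04 without heterozygous line 6. DESeq2 passed 3 claudins (Cldn2, Cldn6 and Cldn23) and 2290 genes. Limma on log2(TPM + 1) passed 2 claudins (Cldn2 and Cldn23) and 1911 genes, and on log2(TPM + 0.1) the same 2 and 1753 genes, of which 14.7% and 15.2% were higher in LOH. With the line as a block 213 genes passed, 83.1% of them higher. The block passed 1 claudin, Cldn6 in place of Cldn23, and changed no other claudin's call. With a library or a line left out, 0 to 2 claudins and 0 to 2449 genes passed in edgeR: 2449 without LOH line 6, 451 without LOH line 23, 1422 without line 6, and 0 without any heterozygous library, line 23 or line 34. Where a library was left out, its group kept 2. For differences between lines, no filter on low counts passed 52 genes and 2 claudins, the DESeq2 likelihood ratio test 119 and 2, and leaving out a library 0 to 13 and 0 to 1. By counts in place of TPM, the upstream start of Cldn18 held 37.9% and 44.8% in the line 6 libraries. The causes of these changes were not tested. Cldn18 had no value under the minimum of 10 counts or on TPM. Cldn1 and Cldn15 did not reach the count filter of the main test. In the shallowest library, levels under 0.223 CPM lay below the floor of 3 counts.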
